A study of Sus scrofa with 32 samples.

Results

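Transcripts of 4 genes that mark early B cell development, VPREB1, RAG1, RAG2 and DNTT, were followed through B cells of the pig ileum and blood. The question was whether B cells of tissue with Peyer's patches carry the genes used where B cells are first made. The 4 genes were chosen by name from the 25880 genes counted, with earlier results of these data known, and their counts and detection by dissection were the reason for the choice, so those levels are given here without a test. Ileum and blood came from 2 mixed-breed pigs of 7 weeks, a female (pig 1) and a male (pig 2). From each pig, 1 library was made from ileum with Peyer's patches (PP), 1 from ileum without them (non-PP), 1 from a full transverse slice of it (whole ileum) and 1 from peripheral blood mononuclear cells (PBMC), 8 libraries in all. No animal was treated, and ileal cells of the epithelium, lamina propria and submucosa were pooled within a library. Every group holds 2 libraries, labelled as 1 of each pig, so that spreads rest on n = 2 libraries. For whole ileum these are not shown to be from 2 pigs, as described below.

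In mammals, B cells are first made from progenitors that cut and rejoin the gene segments of the antibody heavy and light chains. RAG1 and RAG2 form the enzyme that cuts these segments, and DNTT (terminal deoxynucleotidyl transferase) adds untemplated nucleotides where they are rejoined. VPREB1, together with a partner protein, forms the surrogate light chain, which stands in for the light chain in the pre-B cell receptor before a light chain has been made. In sheep the ileal Peyer's patch is known as a site where B cells multiply and diversify their receptors early in life, and pigs also have a long continuous ileal patch, whose role is less settled. Germinal centers are a different setting, in which mature B cells divide and mutate their antibody genes. On assembly Sscrofa11.1 of the RefSeq annotation, VPREB1 (ENSSSCG00000022467) lies at chr14:49972058-49972768. RAG2 (ENSSSCG00000034285) and RAG1 (ENSSSCG00000026145) are neighbours at chr2:24547605-24553944 and chr2:24565447-24573853, and DNTT (ENSSSCG00000010505) spans chr14:107750796-107784626.

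Droplet-based sequencing gave counts of unique molecular identifiers (UMIs), each standing for 1 captured RNA molecule, and the libraries held between 21134542 and 40111934 UMIs. Cells that passed the study's limits on UMIs, genes (at least 550) and mitochondrial share numbered 48629. Of these, 17536 were taken as B cells because they had at least 1 UMI of CD79B, a B cell receptor subunit, and none of CD3E, a T cell receptor subunit. They comprised 3881 and 3800 cells in PP (pigs 1 and 2), 28 and 65 in non-PP, 2041 and 4846 in whole ileum, and 1601 and 1274 in PBMC. The defining B cell markers CD79A, MS4A1 and PAX5, which are not part of the gate, had counts in the B cells of every library. Levels are given in CPM, the UMIs of a gene scaled by all UMIs of the same cells in the usual way. The few gated B cells of non-PP also carried markers of other cells. CD79A was in 7.14% of them in pig 1, where the epithelial keratin KRT8 stood at 227 CPM, and in 20% in pig 2, where the T cell gene CD3G was in 32.3% and CD2 in 29.2% of them. T cell markers summed to 354 CPM in non-PP pig 2, against 67.6 to 143 CPM in PP and whole ileum. What part such RNA has in the values of non-PP was not tested. Pig 1 is female by its label, and Y-linked genes summed to at most 0.224 CPM in its PP, non-PP and PBMC libraries, but to 207 CPM in the library labelled whole ileum pig 1, which thus goes against its label. Its label was kept, and some of the results that rest on it are also given without it. Pairs of libraries shared 21 to 80 cell barcodes, where the size of the barcode list gives 20 to 76.7 by chance.

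VPREB1 was abundant in B cells of PP and whole ileum and nearly absent from blood B cells, while its level in non-PP rests on few cells. In PP it stood at 86.2 CPM in pig 1 (95% Poisson interval 81.8 to 90.8, counting error only, as for all intervals of counts and shares here) and at 149 CPM in pig 2 (143 to 155). In non-PP it stood at 55.0 CPM in pig 1 (23.8 to 108) and at 90.1 CPM in pig 2 (60.3 to 129). These levels came from only 8 and 29 UMIs, in 2 and 19 cells, and the intervals take UMIs of the same cell as independent. The libraries of non-PP thus overlapped those of PP, and their intervals are wide because few cells passed the B cell gate there. The gate took 0.716% and 1.72% of the kept cells of non-PP. The paper annotated a larger share of its non-PP cells as B lineage, so the gated cells may be only a part of them. In the 475 and 1109 non-PP cells with no UMI of CD79B or CD3E, VPREB1 had 0 UMIs. Whole ileum had 87.3 CPM in pig 1 and 208 CPM in pig 2, and PBMC had 0.304 CPM in pig 1 and 4.91 CPM in pig 2. The lowest ileal library lay above the highest blood library, and pig 2 was higher than pig 1 in PP, non-PP and PBMC. The whole ileum libraries had the same order, but by its Y-linked genes the lower one is not shown to be from pig 1.

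**Figure D1:**
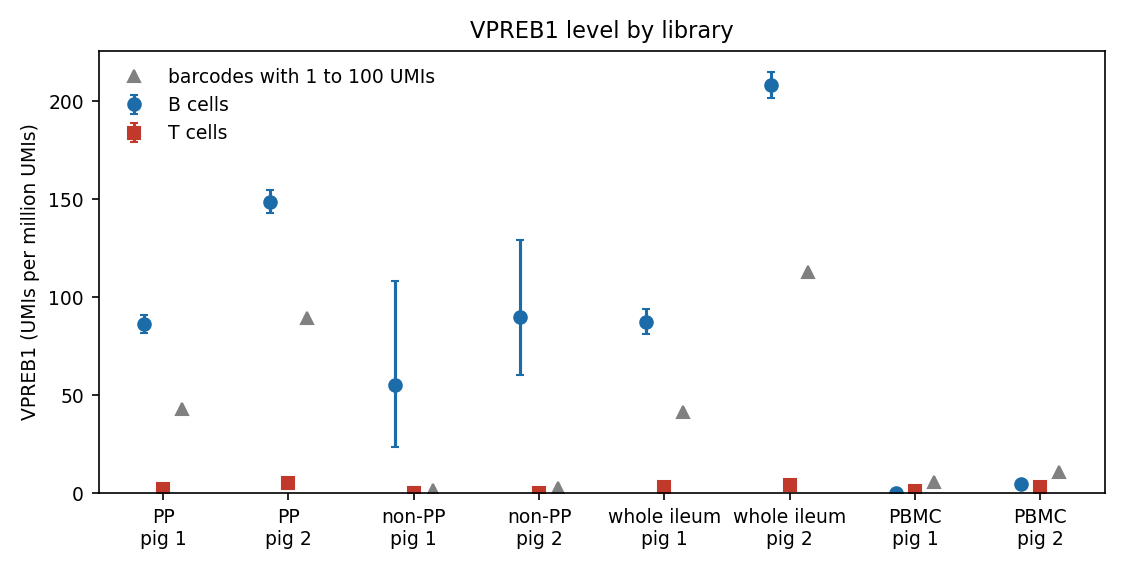
VPREB1 level in CPM (vertical axis) for each of the 8 libraries (horizontal axis), in B cells (circles), T cells (squares) and barcodes with 1 to 100 UMIs (triangles), with 95% Poisson intervals for B and T cells. B cells of the ileum lie between 55.0 and 208 CPM and those of blood at 0.304 and 4.91 CPM, while T cells lie at 5.07 CPM or below.

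Ordered by group mean, VPREB1 in B cells was at 148 CPM ± 85.4 (SD, n = 2) in whole ileum, 117 ± 44.2 in PP, 72.6 ± 24.8 in non-PP and 2.61 ± 3.25 in PBMC. Whole ileum and PP did not differ beyond their spread. The step from PP to non-PP was just above the larger of their SDs, although the libraries of these 2 dissections overlapped. The step from non-PP to PBMC exceeded both SDs. Without the library labelled whole ileum pig 1, whole ileum is 1 library at 208 CPM. In the edgeR fit of B cell counts summed per library, VPREB1 was 38.8-fold higher in PP than in PBMC (log2 difference 5.28, SE 0.75) and 1.42-fold higher in PP than in non-PP (0.51, SE 0.77), both without a test because the gene was chosen for this pattern.

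The share of B cells with at least 1 VPREB1 UMI was 23.3% and 31.7% in PP, 7.14% and 29.2% in non-PP, 20.2% and 41.5% in whole ileum, and 0.125% and 0.942% in PBMC (pig 1 and pig 2). With every cell thinned to the least UMIs a kept cell could have, which removes the difference in depth between cells, these shares were 10.4% and 16.3%, 0% and 10.8%, 10.7% and 23.2%, and 0.0625% and 0.628%. Thinning lowered each ileal share and left the ileum above blood in every library except non-PP pig 1, where 0 of 28 thinned cells kept a UMI.

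T cells, which should lack the gene, gave the background. They were defined by at least 1 CD3E UMI and no CD79B, and VPREB1 was found in 80 of 13434 ileal T cells (0.596%, median 2555.5 UMIs per cell) against 4554 of 14661 ileal B cells (31.1%, median 2989 UMIs). Thinned to equal depth, the shares were 0.253% in T cells and 16.2% in B cells. Blood T cells had 0.0634% and 0.142%, against 0.125% and 0.942% of blood B cells (pigs 1 and 2). Of the 51 VPREB1 UMIs of blood T cells, 48 came from 3 cells. Barcodes with 1 to 100 UMIs, which hold mainly free RNA, had VPREB1 at 42.8 and 89.6 CPM in PP, 41.5 and 113 CPM in whole ileum, 1.62 and 2.68 CPM in non-PP, and 5.92 and 10.7 CPM in PBMC. These barcodes of non-PP were thus low in VPREB1 although its few gated B cells had 55.0 and 90.1 CPM.

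VPREB1 was spread thinly over many ileal B cells. Of the 14661 cells, 10107 had no UMI, 2670 had 1, 1070 had 2 and 814 had 3 or more. Of 13434 ileal T cells 78 had 1 UMI, 2 had 2 and none had more. A single UMI was thus not confined to B cells, although it was far more frequent in them. The highest count in a B cell was 8 and 30 in PP, 5 and 3 in non-PP, 15 and 26 in whole ileum, and 1 and 11 in PBMC.

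RAG1, the catalytic subunit of the recombinase, was not found in a single ileal cell. It had 0 UMIs in all 35386 ileal cells, and 0 of 14661 B cells allows a share of cells with a UMI of up to 0.0205% (3 cells of the total). This limits cells in which a RAG1 molecule was captured, not cells that express the gene. RAG2, its partner, had 4 and 1 UMIs in B cells of PP, 0 and 0 in non-PP, 1 and 1 in whole ileum, and 0 and 1 in PBMC. The 7 ileal UMIs of RAG2 came from 4 cells (0.0273% of ileal B cells, 95% Clopper-Pearson interval 0.00743% to 0.0698%), and all 4 UMIs of PP pig 1 came from 1 cell of 16950 UMIs. DNTT had 3 and 2 UMIs in B cells of PP, 0 and 0 in non-PP, 0 and 1 in whole ileum, and 1 and 2 in PBMC. These were 6 ileal cells with 1 UMI each (0.0409%, 0.0150% to 0.0891%). The ileal and blood libraries overlapped for both genes, at 0 to 4 UMIs a library. Blood had fewer B cells: DNTT was in 3 and RAG2 in 1 of its 2875, against 6 and 4 of the 14661 of the ileum. Mean DNTT was at 0.225 CPM ± 0.103 (SD, n = 2) in PBMC and 0.153 ± 0.041 in PP, and mean RAG2 at 0.074 ± 0.105 and 0.152 ± 0.127.

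**Figure D2:**
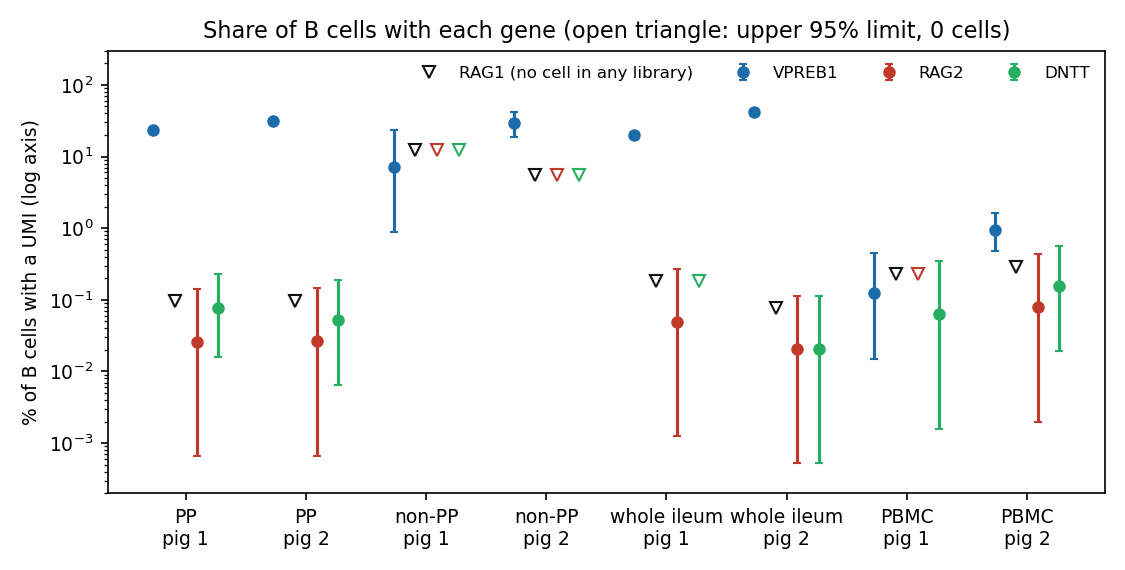
Share of B cells with at least 1 UMI of VPREB1, RAG1, RAG2 or DNTT (vertical log axis, percent) in each of the 8 libraries (horizontal axis), with 95% Clopper-Pearson intervals; open triangles give the upper limit where 0 cells were found. VPREB1 lies between 7.14% and 41.5% in the ileum, while RAG2 and DNTT together reach 10 of 14661 ileal B cells and RAG1 none.

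RAG2 and DNTT were not found together in an ileal B cell. With RAG2 in 4 and DNTT in 6 of 14661 cells, a shared cell was hardly to be met, so this says little. Of the 10 cells with either, 0 had more than 1 of RAG1, RAG2 and DNTT. VPREB1 was in 4 of the 10, against 4554 of all 14661 ileal B cells, too few to tell the shares apart. Their median depth was 5501.5 UMIs, against 2989 over all ileal B cells. No ileal T cell of 13434 had a UMI of any of the 3 genes, which by the same rule allows a share of cells with a UMI of up to 0.0223%. Blood held 20 such cells of 13243, of which 17 had DNTT, 3 RAG2 and 1 RAG1, and 11 of them were in neither the B cell nor the T cell gate. The only RAG1 UMI of the series was in such a cell of PBMC pig 2, together with 5 DNTT UMIs and 1 UMI each of CD79A, of KIT (a receptor of progenitors) and of IL7R (the receptor of a cytokine of early lymphocytes), and this cell was called a doublet. None of RAG1, RAG2 and DNTT passed the filter on low counts of any fit. No library came from a tissue known to make B cells, such as bone marrow, so how well RAG1 would be detected there was not tested.

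VPREB1 of blood was concentrated in a few cells that were mostly not B cells by the gate. In all, 28 of 13243 blood cells (0.211%) had at least 3 VPREB1 UMIs, with a median of 13 and up to 34, and they held 384 of the 408 VPREB1 UMIs of blood (94.1%). By the gate 5 were B cells, 3 T cells and 20 neither, and the 5 gated B cells held 24 of the 35 VPREB1 UMIs of blood B cells. PBMC pig 2 gave all 5 of the B cells, 2 of the 3 T cells and 16 of the 20 in neither gate. The levels of the 28 cells are thus largely those of 1 library. These cells were picked by their VPREB1 after its values had been seen, so their genes are a description. CST3 (cystatin C, a protease inhibitor) stood at 59167 CPM in them, against 343 CPM in the other blood cells. IRF8 stood at 1562 against 47.2 CPM, TCF4 at 851 against 61.7 CPM and SPIB at 396 against 79.8 CPM, all transcription factors on the written list of plasmacytoid dendritic cell genes. Of the same list, BLNK stood at 845 against 32.5 CPM and IRF7 at 731 against 223 CPM. RUNX2 stood at 20.1 against 0.543 CPM, from 3 UMIs in 2 of the 28 cells, and CADM1 had 0 UMIs in them. CD4 was at 369 against 15.5 CPM. The B lineage factor PAX5 had 1 UMI in the 28 cells, and KIT, IL7R, RAG1, RAG2 and CSF1R, a macrophage receptor, had 0. Not all listed early genes were absent. FLT3 stood at 46.9 against 0.916 CPM, from 7 UMIs in 6 cells, and CD93 at 60.3 against 1.17 CPM, from 9 UMIs in 6 cells. DNTT had 2 UMIs, in 2 cells. The germinal center genes RGS13, S1PR2 and MEF2B, which ileal B cells carried, also had 0 UMIs in them. The cells are not given a name here.

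Within the ileum, VPREB1 was lower in resting B cells than in the B cells assigned to no named state, and neither cycling nor plasma program cells were called different from the latter. Ileal B cells were put in 4 states by UMIs per cell, in this order. Cells with at least 3 UMIs of PRDM1, XBP1 and IRF4 were called plasma program (802 cells), those with at least 2 of TOP2A, PCLAF and BIRC5 cycling (6051), those with at least 2 of a set of resting B cell genes that includes CCR7, KLF2 and FCER2 resting (1687), and the remaining 6121 other. In resting cells VPREB1 was at 7.47 and 54.9 CPM in PP and at 13.5 and 90.2 CPM in whole ileum. In cells of the state other it was at 114 and 170 CPM in PP and at 107 and 242 CPM in whole ileum. Each resting sum lay below its counterpart of the same library, and the 2 states did not overlap. Cycling cells had 95 and 142 CPM in PP and 69.5 and 208 CPM in whole ileum, in each of these 4 libraries below the state other of the same library. Plasma program cells had 60.8 and 198 CPM in PP and 194 and 178 CPM in whole ileum, above the state other in 2 of the 4 libraries. In non-PP pig 2, 25 cycling cells had 131 CPM and 28 cells of the state other had 113 CPM, and every remaining sum of non-PP held at most 12 cells.

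**Figure D3:**
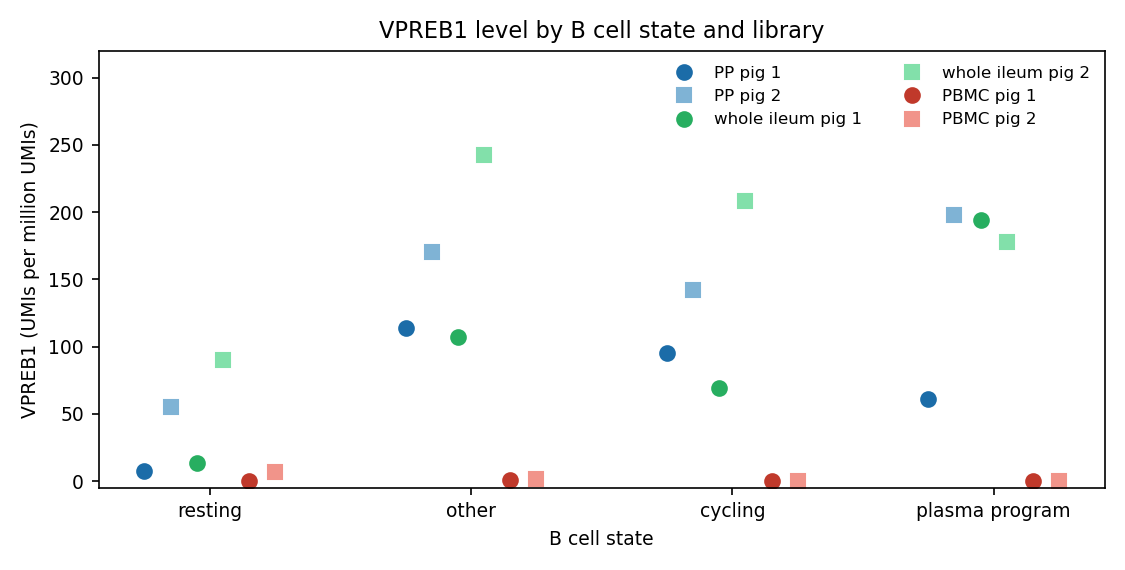
VPREB1 level in CPM (vertical axis) in 4 B cell states (horizontal axis), 1 point for each library of PP (blue), whole ileum (green) and PBMC (red); circles, pig 1; squares, pig 2. Resting ileal cells lie between 7.47 and 90.2 CPM and cells of the state other between 107 and 242 CPM, and every blood point is at 6.76 CPM or below.

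The choice of the genes rested on dissection and blood and not on states, so differences between states were tested, on counts summed per pig and state with pig as a block (edgeR quasi-likelihood test, Benjamini-Hochberg adjustment over 9961 genes). VPREB1 was 3.86-fold lower in resting cells than in the state other (log2 difference -1.95, SE 0.26, 95% interval -2.52 to -1.37, adjusted p = 0.000118), and it was lower in 4 of 4 libraries with at least 20 cells of both states outside blood. In this comparison 35.3% of all genes were called. The difference was -1.97 without the library labelled whole ileum pig 1 (adjusted p = 0.00136), and without the block it was -1.87 and not called (adjusted p = 0.106). Cycling cells differed from the state other by -0.23 (SE 0.18, -0.64 to 0.17, adjusted p = 0.341, with 38.5% of genes called, 19.6% higher and 18.9% lower), a difference that was called with the state thresholds raised by 1 UMI (-0.23, edgeR adjusted p = 0.0421). Plasma program cells differed from it by 0.07 (SE 0.20, -0.37 to 0.51, adjusted p = 0.787, with 47.8% called, 24.6% higher and 23.2% lower). Intervals of this width leave room for a change of up to about the size of their bounds, so these states are not shown to be alike. Without the library labelled whole ileum pig 1, the plasma program difference was -0.24 (adjusted p = 0.508). Cycling and plasma program cells were not tested against each other. Thinned to equal depth, 2.49% of resting cells had VPREB1, against 16.7% of cycling, 19.2% of plasma program cells and 19.0% of the state other.

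Blood B cells were mostly resting by the same thresholds, 66.1% in pig 1 and 75.7% in pig 2, against 11.5% of ileal B cells. Resting cells of blood had VPREB1 at 0.248 and 6.76 CPM, below the 7.47 to 90.2 CPM of resting ileal cells, a comparison of the levels that led to the choice of the gene and hence without a test. The state other of blood had 0.843 and 1.54 CPM, and the 132 and 96 cycling cells and 36 and 42 plasma program cells of blood had 0 VPREB1 UMIs.

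The myeloid marker list moved with the resting state: 6 of its 7 tested genes were higher in resting than in other ileal B cells, with CSF1R at 20.6 and 4.65 CPM against 0.637 and 0.900 CPM, and its part in the VPREB1 result was not tested. With at least 2 CD79B UMIs and no UMI of CD3E, CD3D or CD3G required of a B cell, the VPREB1 difference was -2.33. Resting cells differed from the state other in genes of later B cell stages too. All 12 germinal center genes tested were lower in them, among them S1PR2 (log2 difference -3.01, SE 0.14, edgeR adjusted p = 2.79e-08) and MYBL1 (-2.88, SE 0.14, edgeR adjusted p = 3.16e-08). Of all genes in this comparison, 17.2% were called lower and 18.1% higher. S1PR2 itself, a receptor that keeps B cells in germinal centers, was at 10.1 and 15.8 CPM in resting cells and at 108 and 128 CPM in the state other (pigs 1 and 2). Of the list of progenitor, pro-B and pre-B surface genes, 3 of 8 tested were higher in resting cells and 0 lower, namely CD38, SPN and CXCR4. CD38, an ectoenzyme, was higher by 2.31 (SE 0.14, adjusted p = 2.11e-07) and CXCR4, the receptor that holds precursors in bone marrow and guides B cells in follicles, by 1.15 (SE 0.08). The surrogate light chain and B cell receptor list had 2 of 11 tested genes higher and 6 lower. None of the 11 was a named surrogate light chain gene, here or in the comparisons below. IGLL1, IGLL5 and VPREB3 had no identifier of that name, and VPREB1 was not counted in the list. The list of V(D)J joining genes and RAG cofactors had 3 higher and 3 lower of 11.

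In ileal B cells with VPREB1, most germinal center genes were higher and genes of mature resting B cells were lower than in ileal B cells without it. Cells with at least 1 VPREB1 UMI (4554) were compared with cells with none (10107) on counts summed per pig, with pig as a block and the edgeR quasi-likelihood test over 10893 genes, of which 21.1% were called, 9.3% higher and 11.8% lower. Of the germinal center list, 9 of 12 tested genes were higher in VPREB1-positive cells and 1 lower (median log2 difference 0.40, against -0.01 over all genes). MEF2B, a transcription factor of germinal center B cells, was at 274 and 340 CPM in positive cells of pigs 1 and 2 and at 179 and 242 CPM in negative cells, a log2 difference of 0.50 (SE 0.05, adjusted p = 0.000108). BCL6, the factor that MEF2B acts on there, was at 85.4 and 83.2 CPM against 58.9 and 57.9 CPM (0.48, SE 0.06, adjusted p = 0.000875). FAS, a death receptor, was lower by a log2 difference of -0.34. In each pig the positive cells lay above the negative ones for both factors. By the edgeR test the MEF2B difference was not called without the block (0.50, adjusted p = 0.228), and that of BCL6 was not called after all cells were thinned to equal depth (0.32, adjusted p = 0.118) or within the state other (0.07, adjusted p = 0.835).

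**Figure D4:**
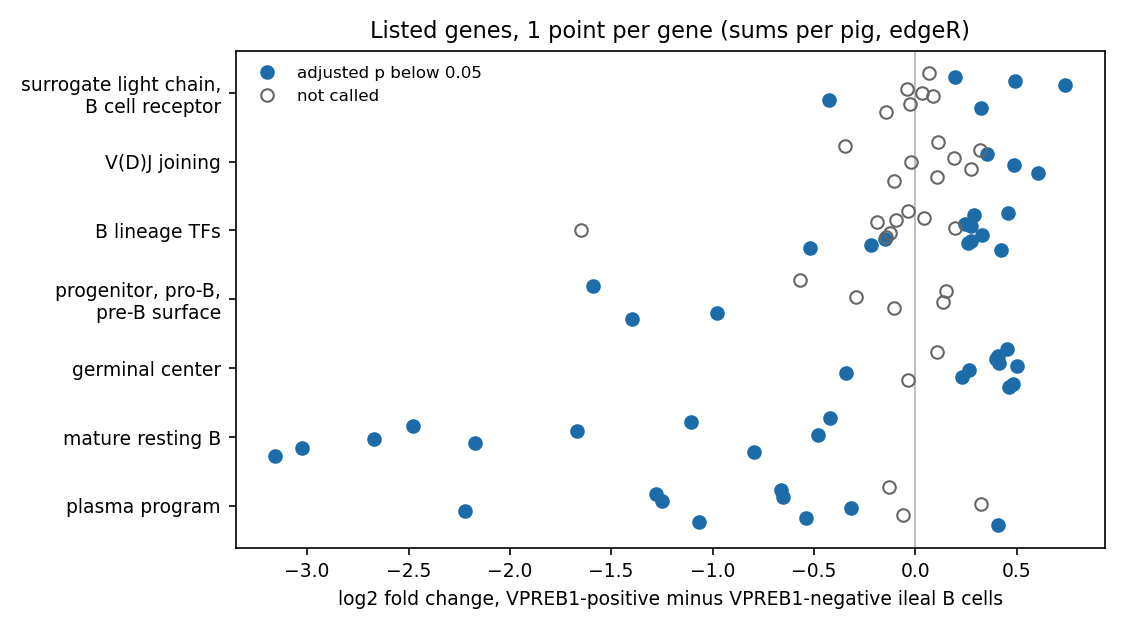
Log2 fold change between VPREB1-positive and VPREB1-negative ileal B cells (horizontal axis), 1 point per tested gene of each of 7 gene lists (vertical axis); filled points have an edgeR adjusted p below 0.05. Of the germinal center list 9 of 12 genes are higher, all 10 tested genes of the mature resting list are lower, and of the progenitor list 3 of 8 are lower and 0 higher.

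Genes of early B cell development moved in both directions with VPREB1. Of the progenitor, pro-B and pre-B surface list, 0 of 8 tested genes were higher in VPREB1-positive cells and 3 were lower, and with 9.3% of all genes called higher a count of 0 among 8 says little. KIT, the stem cell factor receptor, was at 0.634 and 1.05 CPM in positive and at 1.92 and 3.04 CPM in negative cells (log2 difference -1.59, SE 0.34, adjusted p = 0.0101), all of them very low levels. CD38 (-1.40, SE 0.10) and CD9 (-0.98, SE 0.19), membrane proteins found on B cell precursors among other cells, were also lower. Of V(D)J joining genes and RAG cofactors, 3 of 11 were higher and 0 lower. HMGB2, a chromatin protein that assists RAG cutting and is also abundant in dividing cells, was at 3383 and 3231 CPM against 2131 and 2079 CPM (0.61, SE 0.03, adjusted p = 1.02e-05). NHEJ1 (0.49, SE 0.14), a factor of end joining, and POLM (0.36, SE 0.05), a polymerase related to DNTT, were the other two.

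Of the surrogate light chain and B cell receptor list, 4 of 11 tested genes were higher and 1 lower, and none of the 11 was a named surrogate light chain gene. DOK3, an adaptor that dampens B cell receptor signals, was at 73.4 and 76.0 CPM in positive against 35.6 and 51.6 CPM in negative cells (0.74, SE 0.11, adjusted p = 0.00151). FCRLA, an intracellular Fc receptor-like protein of germinal center B cells, was higher by 0.49 (SE 0.06), BLNK, the adaptor downstream of the receptor, by 0.33 (SE 0.05) and the kinase LYN by 0.20. Of the B lineage transcription factors, 8 of 19 were higher, with TCF3 (0.46, SE 0.05), BACH2 (0.42) and IKZF3 (0.33) leading, and 3 lower, namely BCL11A (-0.52), EBF1 (-0.22) and ID3 (-0.15, but 0.031 among cells of the state other only). EBF1, which acts with TCF3 at the start of the B lineage, lay at the threshold (adjusted p = 0.0499) and was not called by DESeq2. Without the library labelled whole ileum pig 1, 7 B lineage factors were higher and 1 lower. ID3 was then not called (-0.146, edgeR adjusted p = 0.0676).

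In VPREB1-positive cells all tested genes of the mature resting list and most of the plasma program list were lower. All 10 tested genes of the mature resting list were lower (median -1.92), with CCR7, a homing receptor of naive lymphocytes, at 11.9 and 11.2 CPM against 117 and 88.1 CPM (-3.16, SE 0.10, adjusted p = 4.33e-07). FCER2, the low-affinity IgE receptor, was at 2.22 and 1.12 against 16.3 and 9.46 CPM (-3.02) and KLF2, a quiescence factor, at 15.1 and 15.5 against 133 and 72.1 CPM (-2.67). Resting cells are defined by these genes and were 1.47% of positive and 16.0% of negative cells. Of the plasma program 8 of 12 genes were lower and 1 higher, with the joining chain gene JCHAIN at 1632 and 1672 CPM against 6410 and 8664 CPM (-2.22, SE 0.08, adjusted p = 8.56e-07). The plasma program state itself was nevertheless more frequent among positive cells (6.79% against 4.88%). PRDM1, which helps define it, was at 17.1 and 16.3 CPM against 11.5 and 14.0 CPM and not called (0.32, SE 0.12, edgeR adjusted p = 0.0872). Markers of other cells moved as well: 6 of 10 T and ILC genes, 3 of 7 epithelial genes and 6 of 7 myeloid genes were lower in positive cells and 0 higher, and their part in the other differences was not tested.

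By size of change among well-expressed genes with a symbol, the 5 genes most enriched with VPREB1 were OVGP1 (1.21, SE 0.14), SSX2IP (1.21, SE 0.09), CDK6 (1.04, SE 0.11), ZP3 (1.00, SE 0.07) and BPGM (0.97, SE 0.09). CDK6 is a kinase of cell cycle entry, and OVGP1 and ZP3 are best known as an oviduct glycoprotein and an egg coat protein. The 5 with the largest drop were CCR7, KLF2, SPAI-2 (-2.66), CXCL14 (-2.33, but 0.06 among cycling cells only) and JCHAIN.

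Depth, cell cycle and state differed between the 2 sets. Positive cells had a median of 3439 UMIs against 2814 and were cycling in 54.1% against 35.5%. With every cell thinned to equal depth, 6.13% of all genes were called, and 4 germinal center genes of 12 were higher and 0 lower, and 9 of 10 mature resting genes lower. The plasma program list then had 2 of 12 genes higher and 2 lower (median -0.06, against -0.59 without thinning). Among cycling cells only (707 and 1755 positive, 1643 and 1946 negative), 7.15% of all genes were called, and 3 of 12 germinal center genes were higher, 8 of 10 mature resting genes lower and 3 of 11 plasma program genes lower with 1 higher. Among cells of the state other only, with 10.1% of genes called, the counts were 4 of 12 and 6 of 10, with 5 of 12 plasma program genes lower and 1 higher. These last comparisons were added after the data had been seen. Without the pig block, 3.06% of genes were called, among them 1 germinal center gene higher, and 8 mature resting and 4 plasma program genes lower. Without the library labelled whole ileum pig 1, 18.2% of genes were called. Then 9 germinal center genes were higher and 0 lower, and 10 mature resting and 9 plasma program genes were lower.

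Ileal B cells that held many VPREB1 UMIs had a different makeup from those that held few. Over cells with 0, 1, 2, 3 to 4, 5 to 9 and 10 or more VPREB1 UMIs (10107, 2670, 1070, 614, 173 and 27 cells), MEF2B stood at 211, 309, 321, 337, 351 and 379 CPM, and BCL6 at 58.4, 81.3, 86.3, 87.2, 92.5 and 28.6 CPM. TOP2A, a topoisomerase of dividing cells, stood at 215, 346, 440, 500, 610 and 236 CPM. XBP1, the factor of antibody secretion, stood at 111, 84.0, 90.6, 123, 226 and 586 CPM. BCL6 and TOP2A were thus highest in cells with 5 to 9 VPREB1 UMIs, and XBP1 in those with 10 or more. MEF2B was lowest in cells without VPREB1, and its 95% Poisson interval in the 27 cells (284 to 495 CPM, from 53 UMIs) covers the level of the 4 classes before it. BCL6 had 4 UMIs in the 27 cells (interval 7.79 to 73.2 CPM). The share of plasma program cells was 4.88%, 4.01%, 5.61%, 12.1%, 30.6% and 55.6%, and that of resting cells 16.0%, 1.54%, 1.40%, 0.977%, 1.16% and 11.1%. Median depth rose over the first 5 classes and was lower in the last, at 2814, 3106.5, 3611, 4179.5, 5873 and 4309 UMIs, and the states are set on UMIs per cell, so that depth enters these shares. The classes pool cells of 6 libraries and carry no test, and libraries labelled pig 1 gave 29 of the 173 and 4 of the 27 cells in the top 2 classes.

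**Figure D5:**
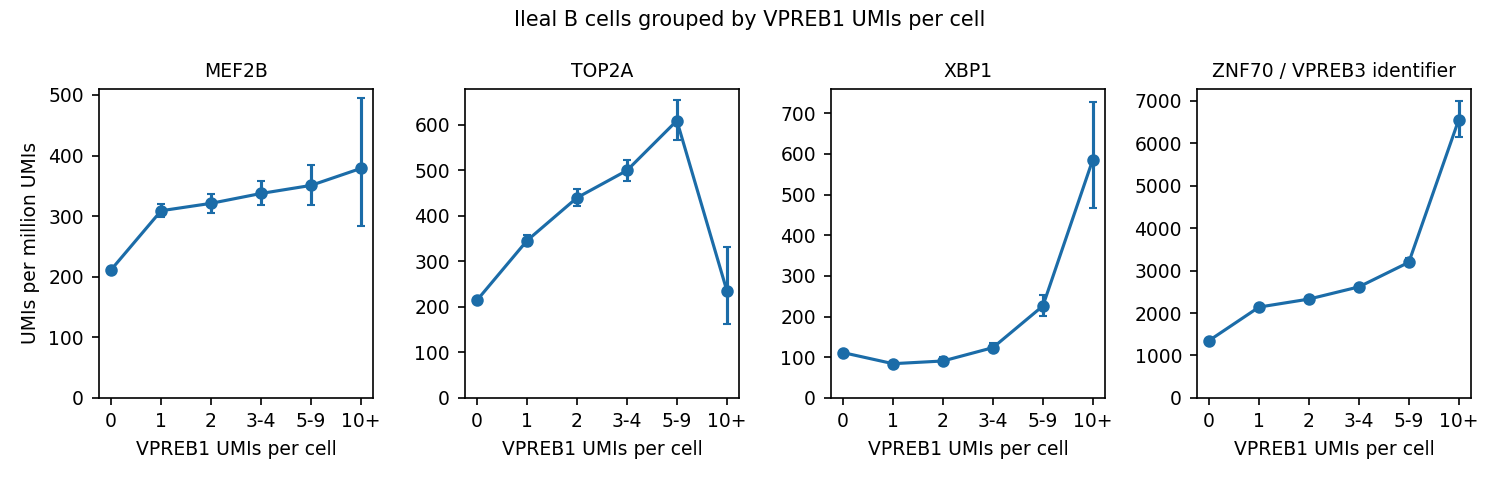
Level in CPM (vertical axes, each from 0) of MEF2B, TOP2A, XBP1 and the identifier named ZNF70 in the matrices and VPREB3 in the name table, in ileal B cells grouped by VPREB1 UMIs per cell (horizontal axes), with 95% Poisson intervals. TOP2A is at 610 CPM in cells with 5 to 9 VPREB1 UMIs and at 236 CPM in the 27 cells with 10 or more, where XBP1 is at 586 CPM and MEF2B at 379 CPM.

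The 27 cells with at least 10 VPREB1 UMIs came from PP pig 2 (11), whole ileum pig 2 (12) and the library labelled whole ileum pig 1 (4), and none from PP pig 1 or non-PP, so that no cell came from a library whose Y-linked genes fit the female label. Without that last library, 23 cells remained, of which 52.2% were in the plasma program. They held 406 of the 8263 VPREB1 UMIs of ileal B cells (4.91%), and 1 was called a doublet. Compared with the 4527 cells of 1 to 9 VPREB1 UMIs, PRDM1, the master factor of plasma cells, was 11.1-fold higher (171 against 15.5 CPM), in 16 of 27 cells. LGALS3BP was 7.45-fold and SEPT11 6.16-fold higher. XBP1 was 5.80-fold higher, and TENT5C, which stabilises antibody messages in plasma cells, was 5.37-fold higher. FKBP11, a chaperone of the secretory pathway, was at 286 against 57.1 CPM. CTSH was 5.03-fold, ZP3 4.79-fold, FCMR 4.66-fold and IL2RG 4.60-fold higher. Lowest against these cells among the better-expressed genes was TFF3, a peptide of goblet cells of the epithelium, with 1 UMI (7.15 CPM) against 268 CPM, followed by SPIB, a B cell factor (6.41-fold lower), FABP6, a bile acid carrier of the ileal epithelium (5.77-fold lower), and CCND3, a cyclin of dividing germinal center cells (4.64-fold lower). In B cells TFF3 stood at 682 CPM in PP pig 1, which gave none of the 27 cells, and at 19.9 CPM in PP pig 2, and its part in the other differences was not tested. JCHAIN stood at 7568, 2187, 1434, 518, 1141 and 2723 CPM over the 6 classes, lowest in cells with 3 to 4 VPREB1 UMIs. In all plasma program cells of the ileum it stood at 38650 and 37820 CPM (pigs 1 and 2). The 27 cells were chosen by VPREB1 after its values were seen, and the differences carry no test.

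A near neighbour of VPREB1 followed it in part. The identifier called ZNF70 in the matrices is called VPREB3 in the supplied table of names, and RefSeq places VPREB3 at chr14:49924874-49929562 and ZNF70 at chr14:49929736-49939304, side by side, so which of the genes it counts is uncertain. VPREB3 encodes a protein that binds immunoglobulin light chains and is made by B cells beyond the precursor stage as well. The identifier stood in B cells at 1606 and 1681 CPM in PP, 1059 and 1140 CPM in non-PP, 1414 and 1966 CPM in whole ileum, and 207 and 243 CPM in PBMC. All 6 ileal libraries lay above both blood libraries, and the difference between PP and PBMC was 6.35-fold (log2 difference 2.67, SE 0.18, edgeR adjusted p = 5.71e-05). It was lower in resting cells (-2.02, SE 0.11, edgeR adjusted p = 5.40e-08) and higher in VPREB1-positive cells (0.77, SE 0.05, edgeR adjusted p = 2.92e-05). Over the classes of VPREB1 UMIs it stood at 1351, 2140, 2328, 2616, 3196 and 6560 CPM, highest in the 27 cells of 10 or more, all of which had it. Of the 28 blood cells high in VPREB1, 3 had a UMI of it. An identifier without a symbol, ENSSSCG00000010077, was in 25 of these 28 cells, at 1006 CPM against 3.95 CPM in the other blood cells. In ileal B cells this second identifier was lower in resting cells (-2.84, SE 0.17, edgeR adjusted p = 1.77e-07). It was higher in VPREB1-positive cells (1.56, SE 0.11, edgeR adjusted p = 3.10e-05). It was looked at after its values were seen.

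Across 26 sums of B cells by library and state (18 of the ileum), the genes whose log2 CPM was most like that of VPREB1 among 4007 genes with a symbol were ZP3 (Pearson r = 0.95), SORL1 (0.95), MEF2B (0.95), RGS13 (0.95) and GP2 (0.94). The sums share libraries, pigs and the step between ileum and blood. Over the 18 ileal sums alone, ZP3 (0.87), the identifier named ZNF70 (0.87), SLC1A4 (0.86), YKT6 (0.86) and APMAP (0.84) came first. These are descriptions of levels over sums that are not independent.

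B cells of PP had higher levels of germinal center genes than those of blood, while the lists of early B cell genes held called genes in both directions. In the fit of 10318 genes over the 8 libraries, 34.2% of genes were called, 16.3% higher and 17.9% lower in PP. All 12 tested germinal center genes were higher (median log2 difference 3.36). RGS13, a regulator of G protein signals in germinal centers, was at 74.7 and 133 CPM in PP against 0.304 and 0 CPM, and S1PR2, the receptor named above, at 81.9 and 109 CPM against 0.152 and 0.446 CPM (8.06, SE 0.355, edgeR adjusted p = 1.39e-05). Of the surrogate light chain and receptor list 2 of 11 were higher (FCRLA 1.60, BLNK 0.82) and 3 lower, with CD72 (-1.28) and SYK (-0.88) among them. The V(D)J joining list had 2 of 11 higher and 2 lower. HMGB2 was at 2577 and 2337 CPM against 655 and 553 CPM (1.82, SE 0.15), POLM was higher by 0.90, and XRCC5, a subunit of the Ku end-binding complex, was at 18.1 and 13.4 CPM against 109 and 107 CPM (-2.99, SE 0.22, edgeR adjusted p = 6.71e-05). The progenitor list had 2 of 8 higher and 4 lower, with CXCR4 at 3.88 and IL7R at 2.04 higher and SPN (-3.18), CD38 (-2.84) and CD9 (-2.46) lower. IL7R was nevertheless at only 2.18 and 2.86 CPM in PP, against 0.304 and 0.743 CPM in PBMC. Of the B lineage factors 7 of 19 were higher and 5 lower, among them BACH2 (1.78), SOX4 (1.66) and IRF8 (1.57) higher and TCF4 (-1.51) and BCL11A (-1.09) lower. Epithelial markers (5 of 7 higher) and myeloid markers (4 of 7 lower) moved in the same comparison, and their part was not tested.

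Between PP and non-PP few genes of any kind were called. Of 10318 genes 0 were higher and 24 lower in PP by the edgeR test (0.233%), with 802 genes at an unadjusted p below 0.05, and DESeq2 called 3 higher and 116 lower. By edgeR, none of the 11 B cell receptor genes, 11 V(D)J joining genes, 19 B lineage factors, 8 progenitor genes and 12 germinal center genes tested was called. With 0.233% of all genes called, these counts of 0 say little, and VPREB1 itself was not tested here. The 7 called list genes were 6 of the plasma program, led by JCHAIN (-2.82, edgeR adjusted p = 0.000187), and TNFRSF13B (-1.70) of the mature resting list. S1PR2, for example, was at 96.3 and 71.5 CPM in non-PP, and HMGB2 at 2015 and 1762 CPM. The non-PP sums rest on 28 and 65 B cells. With at least 2 CD79B UMIs and no UMI of CD3E, CD3D or CD3G required, on 16 and 35 cells, 1 gene was higher and 0 lower.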

How the data were processed

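Single-cell RNA-seq of 8 libraries was re-analysed. The deposited files hold counts of UMIs for each gene in each barcode. The authors produced them with Cell Ranger (version 4.0.6 in the submitters' processing notes) on Sus scrofa 11.1 with a modified Ensembl annotation. They cover all barcodes, before the authors' correction for ambient RNA and removal of poor cells and doublets. The labels give each library as 4 sequencing runs, which were taken as 1 replicate. Of 25880 identifiers, 17733 carried a symbol, 977 were named from the supplied table and 7170 had none.

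Cells were kept as the authors describe (1250 UMIs, 550 genes, 12.5% mitochondrial), and gates and states were set on UMIs per cell. Doublets (Scrublet in scanpy 1.11.5, expected rate 0.07, score above 0.25, 2.72% to 3.76% of cells) were kept and removed only as an alternative. Of all ileal B cells, 524 lay at the UMI limit of the resting state and 999 were 1 UMI below it. These were counted before the order of states was applied, so they include cells assigned to another state. Counts were summed per library, or per pig and state, and tested with edgeR 4.0.16 (quasi-likelihood, filterByExpr, TMM, Benjamini-Hochberg adjustment, called below 0.05) in R 4.3.3. DESeq2 1.42.0 was an alternative. Python 3.11.15 with numpy 2.4.6, scipy 1.17.1, pandas 2.3.3 and matplotlib 3.10.9 was used. The authors' expression tests between clusters take cells as replicates; here the library or pig is the replicate. The fits were tested on simulated data.

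The members and the 11 gene lists (130 genes, of which 10 had no named identifier) were chosen with earlier results of these data known. Named genes were the 4 members and, of each list, up to 3 called genes in each direction with the largest change. Added to these were the 5 genes with the largest change in each direction among called genes with a symbol and mean log2 CPM above 5. The 5 genes with a symbol most correlated with VPREB1 were named too. Genes outside this rule, such as those of the blood and high-VPREB1 cells, were chosen after their values were seen. Pig numbers in the labels name animals and were used to pair the libraries, although the library labelled whole ileum pig 1 carries Y-linked RNA and is not shown to come from the female pig 1. Correlations of same-pig deviations were 0.32 between PP and PBMC, 0.27 between PP and non-PP and -0.10 to 0.07 for the other pairs. States and VPREB1 classes had pig as a block. Some genes of the lists and gates are not reported here by name; counts over a list include them.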

Additional observations from a re-analysis of the deposited data

How the results depend on the processing

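Each group rests on 2 libraries, few cells of non-PP passed the B cell gate, and RAG1, RAG2 and DNTT were too rare for any test. VPREB1 UMIs were also found in ileal T cells, and their source was not tested. The causes of the changes below were not tested.

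For VPREB1, the resting difference was -1.87 and not called with no replicate block (adjusted p = 0.106), the only alternative run in which its call was lost, and lay at -2.20 to -1.58 with single libraries left out. The cycling difference of -0.23 was called with state thresholds raised by 1 UMI (adjusted p = 0.0421). The share of PP B cells with VPREB1 was 13.3% after thinning, against 27.5%.

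Called genes between PP and PBMC numbered 1113 to 2077 higher and 1026 to 1897 lower with single libraries left out, the lowest without PP pig 1 and PBMC pig 2; lower genes were 1215 without PP pig 1, 1152 without PP pig 2 and 1142 without PBMC pig 1. Between PP and non-PP, DESeq2 called 3 higher and 116 lower, the replicate block 2 higher, the stricter gate 1 higher and 0 lower, and leaving out single libraries 9 to 18 lower (9 without PP pig 1 or non-PP pig 1, 10 without PP pig 2, 13 without non-PP pig 2 or a whole ileum library). DESeq2 called 1530 genes lower in plasma program and 1172 in cycling cells, and no replicate block gave 1210 higher and 838 lower in cycling cells. With VPREB1, DESeq2 called 338 higher and 457 lower, no replicate block 95 and 238, thinning 184 and 369, cycling cells only 303 and 389, the state other only 311 and 577, and single libraries left out 585 to 1092 higher (585 without PP pig 1, 624 without PP pig 2).

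Some genes that met the rule for naming changed direction. Under the stricter gate, CFD went from -2.39 to 1.503 (PP minus non-PP) and was not called (edgeR adjusted p = 0.848). In resting cells APOE went from 3.28 to -1.12 and was not called (edgeR adjusted p = 0.131). CXCL14 went there from 3.11 to -1.88 and was called lower (edgeR adjusted p = 0.000572). CXCL14 was 0.06 in cycling cells only and ID3 0.031 in the state other only (VPREB1-positive minus negative). SPINK1, at -1.915 in cycling cells, ranged from -2.15 to 0.065 with single libraries left out. Of the other alternatives of named genes, 3084 kept their side of the threshold and 297 lost the call, EBF1 with VPREB1 among them.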
